A study of Mus musculus with 2 samples.

Results

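The genes of nucleotide and one-carbon metabolism were examined in haematopoietic progenitor cells of the mouse embryonic aorta, sorted as CD31+ KITint cells at embryonic day 11. The 43 members were chosen by gene name from the enzymes of these pathways, and all 43 were found among the 24062 genes of the count tables. Both groups came from C57BL6 mice carrying Gata2Venus, a fluorescent reporter transgene for Gata2, a transcription factor of blood stem and progenitor cells. One group held 1 RNA sequencing library from cells without the reporter's fluorescence (Gata2Venus-negative), with 10135400 counts in genes, and the other 1 library from cells with it (Gata2Venus-positive), with 9715131 counts. By its title the study concerns progenitors independent of Gata2, and the comparison asks how reporter-negative and reporter-positive cells of this sort differ. How many embryos or sorts went into each library is not given in the sources used here. Since each group has 1 library, differences have no replicate check, no p-value is given, and every value describes these libraries. Levels are given as CPM, counts scaled to a common library size, and 95% intervals are exact and cover counting error only. They treat reads as independent molecules, which amplified reads without molecular identifiers are not.

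Purine and pyrimidine nucleotides are the building blocks of RNA and DNA. A cell either builds them from small precursors (de novo synthesis) or recovers them from free bases and nucleosides (salvage). One-carbon units carried on folate, drawn mainly from serine, enter the purine ring and thymidylate, and also feed the methionine cycle, which supplies methyl groups. Dividing progenitors draw on all of these routes, and ribonucleotide reductase and thymidylate synthase are most active in cells that copy their DNA.

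The pathway as a whole stood at nearly the same level in the 2 libraries, while single enzymes and isozymes differed. Summed over the 43 genes, the level was 6136 CPM in the Venus-negative and 6004 CPM in the Venus-positive library (1.02-fold). De novo purine genes were 1.36-fold higher in the Venus-negative library (log2 ratio 0.44), and the genes of purine salvage and interconversion 1.34-fold lower (-0.42). The latter include Prps1 and Prps2, which serve both routes, and genes that interconvert purine nucleotides. For scale, single genes averaging 50 CPM or more over both libraries departed from equal expression by a median of 0.47 (log2). Calls were made by size: a gene needed 10 CPM and 50 counts in its higher library, and a ratio whose whole interval exceeded 2-fold. By this rule of size 4 members were higher in the Venus-negative library, namely Mthfd1l, Amt, Dctd and Umps, and 5 were lower, namely Tk2, Psph, Prps2, Hprt and Mthfd1. The other 34 were not past it, and 1 of them, Gldc, had under 20 counts over both libraries. Of the 42 members with at least 20 counts, 21.4% were thus past the rule, against 24.9% of the 12544 genes with as many counts. In the separate directions 12.6% of all those genes were higher and 12.3% lower in the Venus-negative library.

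**Figure D1:**
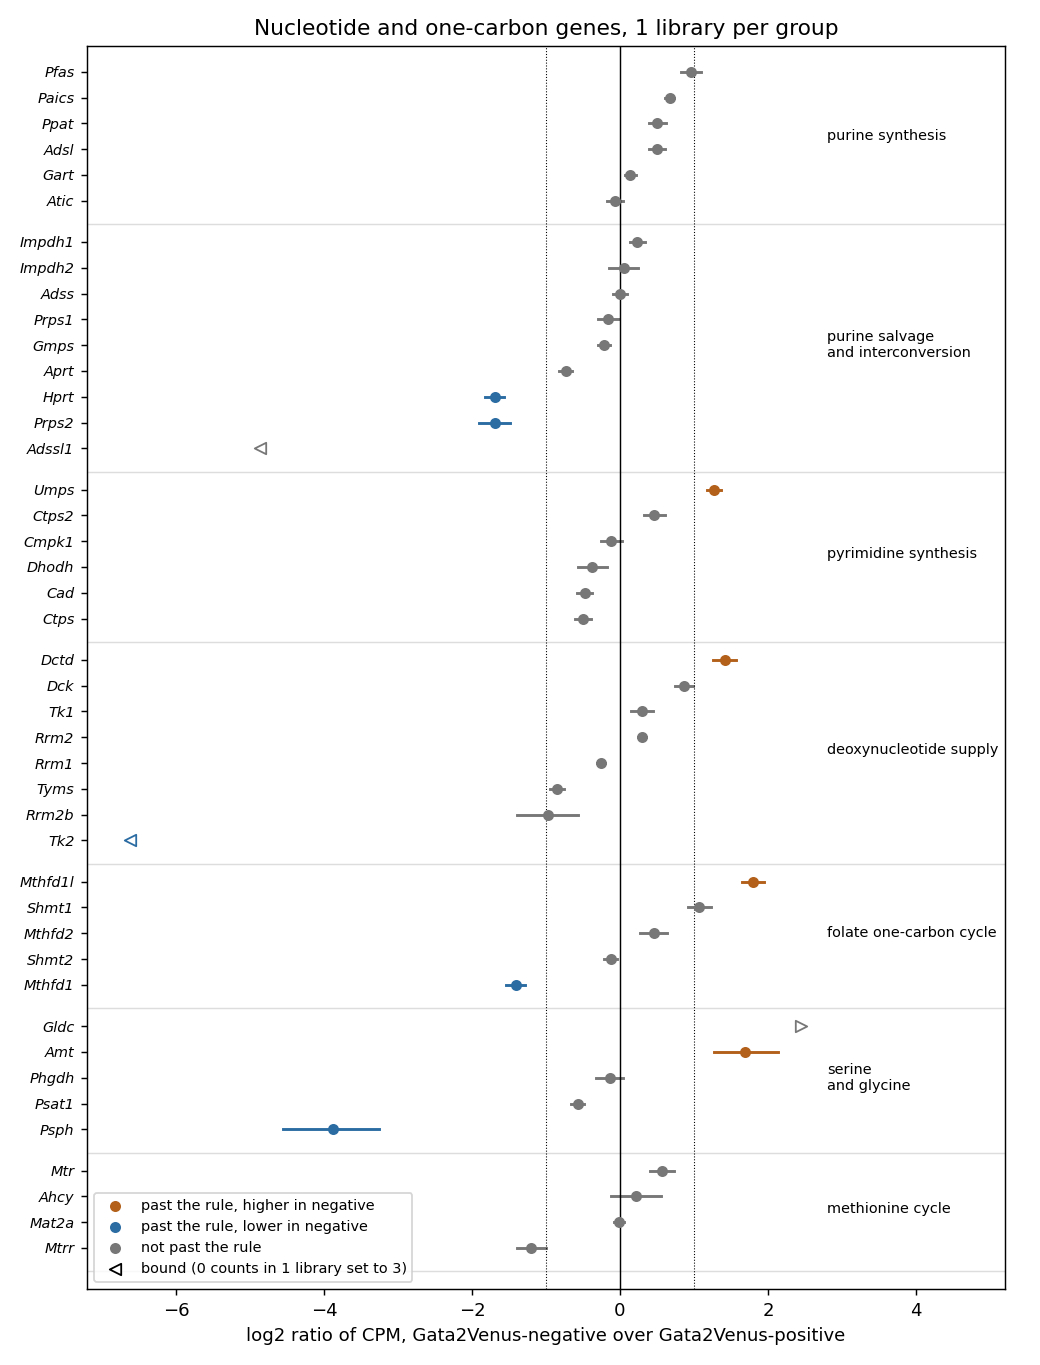
Log2 ratio of the level (CPM) in the Gata2Venus-negative over the Gata2Venus-positive library for the 43 genes, grouped by branch, with exact 95% counting intervals; the dotted lines mark 2-fold. Orange and blue points are the 4 and 5 genes past the rule of size, and open triangles are bounds for genes with 0 counts in 1 library.

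The members' median log2 ratio of negative over positive was -0.04, beside -0.01 over all genes with at least 20 counts. Their median departure from equal expression, without regard to sign, was 0.50 on the log2 scale, against 0.83 over all those genes. Most members are abundant, and abundant genes differed less in general. Among the 31 members averaging 50 CPM or more over both libraries, 5 (16.1%) were past the rule, against 14.3% of 4730 genes at such levels, with 7.89% of these higher and 6.41% lower. The members' median departure was 0.50 there and that of all these genes 0.47. As a set, the members differed between the libraries about as often and as far as other genes of their level.

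**Figure D2:**
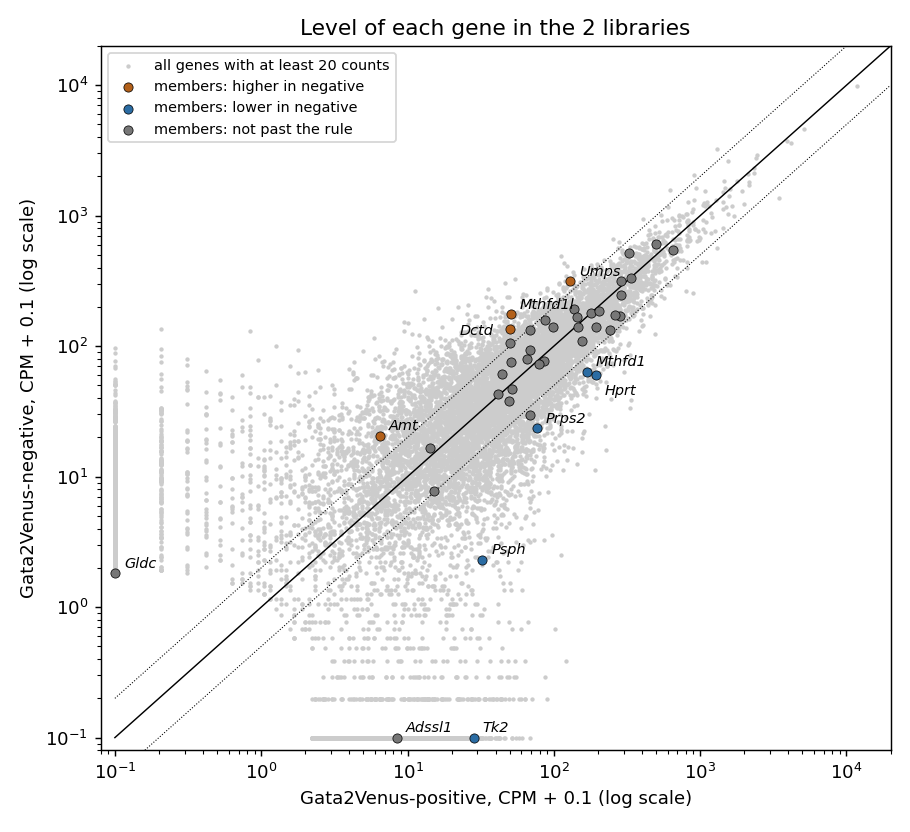
Level of every gene with at least 20 counts (grey) in the Gata2Venus-positive (x) and Gata2Venus-negative (y) library, as CPM plus 0.1 on log axes, with the 43 members in colour; the solid line marks equal levels and the dotted lines 2-fold. Most members lie among the abundant genes near the line of equal levels, and Tk2, Adssl1 and Gldc lie on the axes, with 0 counts in 1 library.

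Samples of this kind can hold several cell types, and in RNA from a mixed population fewer cells of a type and less RNA per cell cannot be told apart. Gata2 itself was at 13.5 CPM in the Venus-negative and 70.2 CPM in the Venus-positive library, the direction of the sort. The genes of the other sort markers, Kit (199 and 60.7 CPM) and Pecam1, which encodes CD31 (537 and 489 CPM), were present in both. Kit was past the rule and 3.28-fold higher in the Venus-negative library (log2 ratio 1.71, interval 1.58 to 1.85), although both groups were sorted as KITint. Of 10 haematopoietic progenitor markers, Spn was at 0 counts in both libraries and Myb at 0 in the Venus-negative one, and the list's summed level was 807 and 1250 CPM. Of the 9 with at least 20 counts, Kit alone was higher by ratio in the Venus-negative library and 8 were lower. The name progenitor follows the study's title and was not tested here. Endothelial markers summed to 2300 and 4154 CPM with 0 of 8 undetected. The 7 macrophage markers found summed to 174 and 804 CPM, each with counts in both libraries. Mesenchymal markers summed to 6978 and 4508 CPM, and only Twist1 of 9, in the Venus-positive library, was at 0. Much of this sum was Col3a1, at 3249 and 1310 CPM. By ratio 6 of the 9 were higher in the Venus-negative library and 3 were lower, namely Col1a2, Dcn and Lum. The 5 germ cell markers summed to 228 and 12.5 CPM, and Dazl was at 0 in the Venus-positive library. Among the erythroid markers reported here, Gata1, Klf1 and Epor were at 0 in the Venus-negative library, while globin genes kept the sums over all 8 markers at 325 and 231 CPM. The part of these markers in any difference given here was not tested.

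De novo purine synthesis, which builds inosine monophosphate (IMP) on a ribose phosphate, was carried by 6 genes. Of these, 5 had a ratio above equal expression and 0 were past the rule. Among all 12544 genes with at least 20 counts, 6218 had a ratio above equal expression and 24.9% were past the rule. A branch of 6 genes is too small to be set apart from these shares. Counts of the 6 genes summed to 1441 CPM in the Venus-negative and 1062 CPM in the Venus-positive library, a log2 ratio of 0.44 (interval 0.40 to 0.48). Pfas, whose product makes the formylglycinamidine intermediate, came nearest to 2-fold, at 133 and 68.1 CPM (log2 ratio 0.96, interval 0.83 to 1.10). Paics, the bifunctional carboxylase and synthetase of the middle of the pathway, was at 517 and 324 CPM (log2 ratio 0.67, interval 0.61 to 0.74). Ppat, the first committed enzyme, was at 141 and 99.2 CPM (0.51), and Adsl, which acts both here and in the making of AMP, at 193 and 136 CPM (0.50). The remaining genes lay closer to equal levels. Gart, a trifunctional enzyme of the early steps, was at 316 and 287 CPM (0.14), and Atic, which closes the ring with a folate-borne carbon, at 140.0 and 146 CPM (-0.06, interval -0.17 to 0.04).

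Ppat and Paics lie head to head on chromosome 5 of mm10, at 76913249 to 76951578 on the minus strand and 76951307 to 76967509 on the plus strand, and the annotated starts of the 2 genes overlap by 272 bases. No source used here says whether counting used strand, and reads of that stretch cannot be assigned to either gene with certainty. Gart (chromosome 16, 91621186 to 91646952) has a head-to-head neighbour as well, the splicing factor gene Son, whose start site lies 554 bases from its own. Son had 4536 and 3480 counts (log2 ratio 0.24, interval 0.18 to 0.31), so both genes of this pair had slightly more in the Venus-negative library. The stretch before Gart's RefSeq start site, part of the gap between the pair, is shown because the pair's ratios were alike; it is the minus strand of chr16:91646973-91647222 in GRCm38.p6, and capitals mark a CCAAT word.
Gart upstream: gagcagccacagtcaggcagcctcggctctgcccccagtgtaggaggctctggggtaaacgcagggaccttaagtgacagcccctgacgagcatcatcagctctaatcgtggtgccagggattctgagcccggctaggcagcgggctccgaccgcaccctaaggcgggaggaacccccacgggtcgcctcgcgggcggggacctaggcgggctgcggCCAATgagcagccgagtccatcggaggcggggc

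Both members that recover purine bases, Hprt and Aprt, had lower levels in the Venus-negative library. Of the 2, 1 passed the rule, beside 24.9% of all genes with at least 20 counts. Hprt, which recovers hypoxanthine and guanine, had 625 counts in the Venus-negative and 1835 in the Venus-positive library, or 60.0 and 194 CPM. It was 3.23-fold lower in the Venus-negative library (log2 ratio -1.69, interval -1.83 to -1.56) and past the rule. Aprt, which recovers adenine, was at 169.9 and 282 CPM, 1.66-fold lower without passing the rule (log2 ratio -0.73, interval -0.82 to -0.64). The 2 base salvage genes together were at 229.9 and 476 CPM, a sum chosen after the values were seen. Counts of the 6 de novo genes were 6.26 times those of Hprt and Aprt in the Venus-negative library and 2.23 times in the Venus-positive library. This ratio does not depend on how the libraries are scaled, and it covers no other salvage gene. Adk, the adenosine salvage kinase of a related list, lay the other way without passing the rule. It was at 128 and 107 CPM (log2 ratio 0.26, interval 0.14 to 0.38).

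Phosphoribosyl pyrophosphate, the sugar donor for both routes, is made by the synthetases of Prps1 and Prps2. Prps1 was at 77.3 and 86.2 CPM (log2 ratio -0.16, interval -0.30 to -0.01). Prps2 was past the rule and lower in the Venus-negative library, with 245 and 720 counts, or 23.5 and 76.1 CPM (3.24-fold, log2 ratio -1.69, interval -1.91 to -1.48). Prps1 therefore made up 76.7% of the pair's counts in the Venus-negative library (interval 74.0% to 79.2%) and 53.1% in the Venus-positive library (50.6% to 55.6%). Of Prps1's 50-base words, 10.1% recur in the copy Prps1l3, so some of its reads could have been dropped as not unique.

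Apart from Adsl, which was counted with de novo synthesis, the genes of the steps from IMP to AMP and GMP differed little in their summed level. These 5 genes, without Adsl, summed to 639 and 660.2 CPM, a sum chosen after the values were seen (log2 ratio -0.05, interval -0.10 to 0.00). Gmps, which makes GMP, was at 249 and 288 CPM, and Adss, which commits IMP to AMP, at 179.6 and 179.3 CPM. The muscle-type isozyme gene Adssl1 had 0 counts in the Venus-negative and 79 in the Venus-positive library, at least 29.0-fold lower when 0 is set to 3 counts and at least 23.0-fold by the exact interval, but at 8.35 CPM it stayed under the rule's minimum. Impdh1 and Impdh2 encode the enzyme that commits IMP to GMP. Impdh1 was at 168 and 143 CPM (log2 ratio 0.23) and Impdh2 at 42.6 and 41.1 CPM (0.05), which made Impdh1 79.8% and 77.7% of the pair's counts. The low level of Impdh2 is uncertain, since 67.6% of its 50-base words are also found in the pseudogene Impdh2-ps, and 45.5% and 48.2% of all counts were alignments that were not unique and went to no gene.

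**Figure D3:**
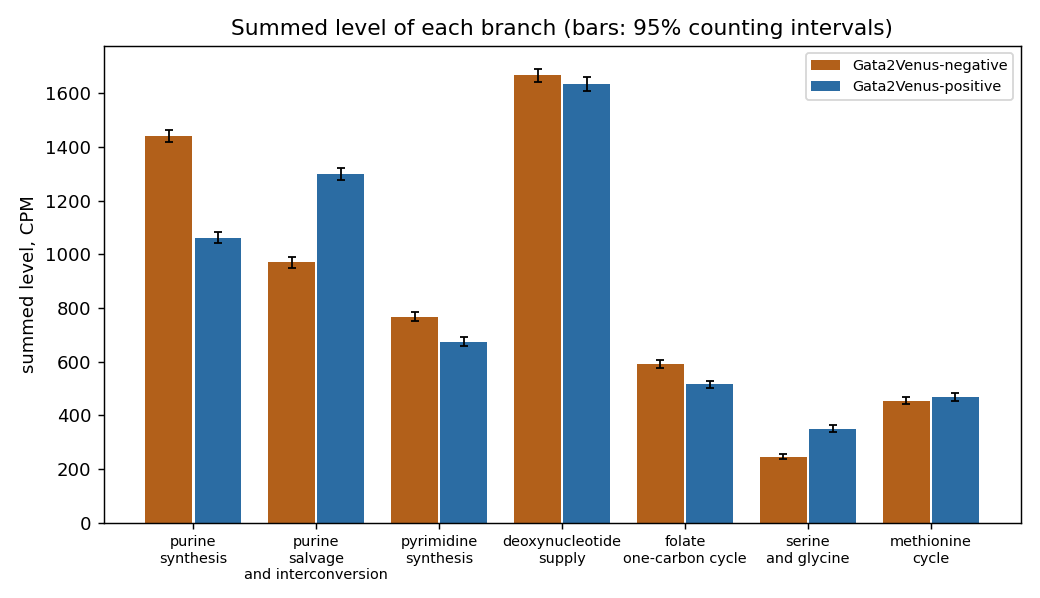
Summed level (CPM) of the genes of each of 7 branches in the Gata2Venus-negative (orange) and Gata2Venus-positive (blue) library, with exact 95% Poisson intervals of the summed counts as bars. Purine synthesis is higher in the Venus-negative library (1441 and 1062 CPM), and purine salvage and interconversion (969.7 and 1298 CPM) and serine and glycine genes (246 and 350.2 CPM) are lower.

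In pyrimidine synthesis 1 of 6 genes was past the rule, beside 24.9% of all genes with at least 20 counts. Umps (chromosome 16, 33954782 to 33967038), the bifunctional enzyme that turns orotate into UMP, had 3262 and 1224 counts, or 313 and 129 CPM. It was 2.42-fold higher in the Venus-negative library (log2 ratio 1.28, interval 1.18 to 1.37). The enzymes before it lay the other way. Cad, the trifunctional enzyme of the first steps, was at 139 and 193 CPM (log2 ratio -0.47, interval -0.58 to -0.37), and Dhodh, the mitochondrial dehydrogenase that makes orotate, at 37.8 and 49.1 CPM (-0.37). CTP synthase is encoded by Ctps and Ctps2, whose values crossed. Ctps was at 110.1 and 156 CPM (-0.50, interval -0.61 to -0.39) and Ctps2 at 94.0 and 68.1 CPM (0.47, interval 0.32 to 0.61). Ctps made up 53.9% of the pair's counts in the Venus-negative library (interval 51.8% to 56.1%) and 69.6% in the Venus-positive library (67.6% to 71.5%). The kinase gene Cmpk1, which phosphorylates UMP and CMP, was at 73.4 and 79.4 CPM. Summed over the branch, the level was 768 and 675 CPM (log2 ratio 0.19, interval 0.14 to 0.23).

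The deoxynucleotide genes summed to nearly the same level, 1667 and 1635 CPM, with opposite differences among them. Ribonucleotide reductase, which makes deoxynucleotides from ribonucleotides, was at 1160 and 1163 CPM over Rrm1, Rrm2 and Rrm2b (a sum chosen after the values were seen). Its large subunit gene Rrm1 was at 545 and 653 CPM (log2 ratio -0.26, interval -0.31 to -0.21), and the small subunit gene of dividing cells, Rrm2, at 607 and 495 CPM (0.29, interval 0.24 to 0.35). Rrm2b, the p53-regulated small subunit gene, was low in both, at 7.68 and 15.1 CPM (-0.98, interval -1.39 to -0.57). Per kilobase of merged exons, Rrm2 stood 164 times above Rrm2b in the Venus-negative and 68.1 times above it in the Venus-positive library.

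The enzymes that feed thymidylate differed more. Dctd, which deaminates dCMP to dUMP, the substrate of thymidylate synthase, had 1397 and 476 counts, or 134 and 50.3 CPM, and was past the rule (2.67-fold higher in the Venus-negative library, log2 ratio 1.41, interval 1.26 to 1.57). Tyms, thymidylate synthase itself, lay the other way at 134 and 241 CPM (log2 ratio -0.85, interval -0.95 to -0.75) without passing the rule. The nucleoside kinases were split as well. Dck, which phosphorylates deoxycytidine, was at 159 and 87.0 CPM (0.87, interval 0.75 to 0.99), and the cytosolic thymidine kinase gene Tk1 at 80.3 and 65.4 CPM (0.29, interval 0.14 to 0.45). Tk2, the mitochondrial thymidine kinase (chromosome 8, 104226685 to 104248558), had 0 counts in the Venus-negative and 267 in the Venus-positive library, at least 98.0-fold lower when 0 is set to 3 counts. The exact interval allows a fold as small as 79.1. A count of 0 in 1 library beside many in the other was common in both directions. At 0 counts in the Venus-negative and at least 100 in the Venus-positive library stood 279 genes, and 297 genes showed the reverse.

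The folate cycle held the widest exchange between isozymes. Mthfd1 encodes the cytosolic trifunctional enzyme that interconverts folate-bound one-carbon units, and Mthfd1l the mitochondrial synthetase that releases formate. Mthfd1 (chromosome 12, 76255298 to 76319803) had 661 counts in the Venus-negative and 1593 in the Venus-positive library, or 63.5 and 168 CPM. It was 2.65-fold lower in the Venus-negative library (log2 ratio -1.41, interval -1.54 to -1.28). Mthfd1l (chromosome 10, 3973118 to 4167081) had 1831 and 478 counts, or 176 and 50.5 CPM, and was 3.48-fold higher there (1.80, interval 1.65 to 1.95). Mthfd1 thus made up 26.5% of the pair's counts in the Venus-negative library (interval 24.8% to 28.3%) and 76.9% in the Venus-positive library (75.0% to 78.7%). Per kilobase of merged exons the order of the pair was reversed, with Mthfd1 at 19.6 and Mthfd1l at 41.2 CPM per kilobase in the Venus-negative library, and 52.0 and 11.8 in the Venus-positive library. Among the 6 pairs with counts for both genes in both libraries, the log2 ratios of this pair lay farthest apart.

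No 50-base word of Mthfd1 or Mthfd1l was found in another annotated gene. The stretch before the RefSeq start site of Mthfd1l, the member with the largest increase among those counted in both libraries, is shown here. It is the plus strand of chr10:3972825-3973074 in GRCm38.p6 and held 0 matches to the 3 words searched (given further on).
Mthfd1l upstream: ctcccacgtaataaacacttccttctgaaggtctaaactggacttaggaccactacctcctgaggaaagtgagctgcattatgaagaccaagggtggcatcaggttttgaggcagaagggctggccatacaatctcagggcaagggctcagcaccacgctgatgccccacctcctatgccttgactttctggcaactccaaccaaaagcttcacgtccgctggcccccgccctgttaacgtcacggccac

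Serine hydroxymethyltransferase moves a carbon from serine to folate, in the cytosol by Shmt1 and in mitochondria by Shmt2. Shmt1 had 1099 and 474 counts, or 106 and 50.1 CPM (2.11-fold higher in the Venus-negative library, log2 ratio 1.07, interval 0.92 to 1.23), with an interval that reached below 2-fold. Shmt2 was at 185 and 202 CPM (-0.13) and the more abundant of the pair per kilobase in both libraries. Shmt1's share of the pair's counts was 36.3% in the Venus-negative library (interval 34.6% to 38.1%) and 19.9% in the Venus-positive library (18.3% to 21.5%). Mthfd2, the mitochondrial dehydrogenase and cyclohydrolase of dividing and embryonic cells, was at 60.6 and 44.1 CPM (0.46, interval 0.28 to 0.64). The cytosolic pair Shmt1 and Mthfd1 therefore moved in opposite directions, and summed to 169 and 219 CPM. The mitochondrial genes Shmt2, Mthfd2 and Mthfd1l summed to 422 and 297 CPM. Both sums were chosen after the values were seen.

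**Figure D4:**
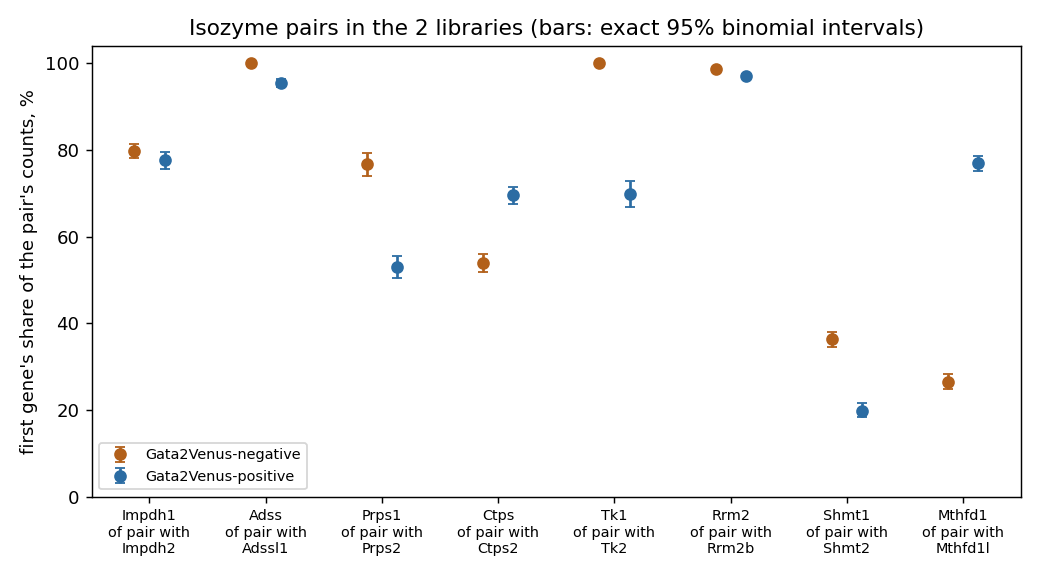
Share (%) of the first-named gene in the counts of 8 isozyme pairs, in the Gata2Venus-negative (orange) and Gata2Venus-positive (blue) library, with exact 95% binomial intervals. The share of Mthfd1 is 26.5% in the Venus-negative and 76.9% in the Venus-positive library, and the shares of Impdh1 lie at 79.8% and 77.7%.

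Serine is made from a glycolytic intermediate by Phgdh, Psat1 and Psph in turn. The last enzyme of the route, Psph (chromosome 5, 129765558 to 129787449), had 23 counts in the Venus-negative and 306 in the Venus-positive library, or 2.21 and 32.4 CPM. It was 14.6-fold lower in the Venus-negative library (log2 ratio -3.87, interval -4.55 to -3.26), the largest difference among members counted in both libraries. Psat1, the aminotransferase, was at 174.7 and 259.8 CPM (-0.57, interval -0.66 to -0.48). Phgdh, the first enzyme, had 489 counts in each library, or 47.0 and 51.7 CPM (-0.14, interval -0.32 to 0.05). The Phgdh level is uncertain because 61.3% of its 50-base words occur in other annotated genes, most of all in Gm7901. Psph shared no word with another locus, but 452 bases of its gene overlap the chaperonin gene Cct6a on the opposite strand, which had 13162 and 7861 counts.

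The glycine cleavage system splits glycine and passes its carbon to folate in mitochondria. Amt, its aminomethyltransferase, had 214 and 60 counts, or 20.6 and 6.34 CPM, and was past the rule (3.24-fold higher in the Venus-negative library, log2 ratio 1.70, interval 1.28 to 2.13). Gldc, the decarboxylase of the same complex, had 18 counts in the Venus-negative library and 0 in the Venus-positive one. Setting the 0 to 3 counts puts it at least 5.45-fold higher, and 3.99-fold by the exact interval, at a level too low for the rule. Gcsh and Dld, which supply the other parts of the complex, were near equal, at 103 and 113 CPM and at 181 and 149 CPM.

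In the methionine cycle 0 of 4 genes passed the rule, beside 24.9% of all genes with at least 20 counts. Mat2a, which makes S-adenosylmethionine outside the liver, was at 333 and 335 CPM (log2 ratio -0.01, interval -0.08 to 0.06). Mtr, methionine synthase, was at 75.0 and 50.6 CPM (0.57, interval 0.40 to 0.73), and Mtrr, the reductase that reactivates it, at 29.8 and 68.2 CPM (-1.20, interval -1.40 to -0.998). The enzyme and its reactivating partner thus lay on opposite sides of equal expression. Ahcy, which clears S-adenosylhomocysteine, was at 16.4 and 14.2 CPM (0.21, interval -0.12 to 0.55). Its level is uncertain, since 75.6% of its 50-base words recur in other annotated loci, among them Gm4737.

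Mtrr (chromosome 13, 68560780 to 68582149) starts 85 bases from the head-to-head gene Fastkd3, a mitochondrial RNA-binding protein gene named here after its values were seen. Fastkd3 was at 71.7 and 33.3 CPM (log2 ratio 1.11, interval 0.92 to 1.30), so the 2 genes of this pair differed between the libraries in opposite directions. Neither was past the rule. Mthfd2 also has a head-to-head neighbour, Mob1a, whose start site lies 108 bases away. Mob1a was at 125 and 103 CPM (log2 ratio 0.27, interval 0.15 to 0.39), the same direction as Mthfd2 (0.46), and its stretch is not shown. The bases between the RefSeq start site of Mtrr at 68582169 and the start of Fastkd3, covered by no GENCODE exon, are shown because both genes begin there, as the minus strand of chr13:68582170-68582233 in GRCm38.p6. Capitals mark ATTGG, the reverse complement of CCAAT.
Mtrr to Fastkd3 gap: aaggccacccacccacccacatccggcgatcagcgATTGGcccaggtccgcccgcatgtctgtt

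RefSeq promoter windows, from 250 bases before to 50 after a start site, were at hand for 40 of the 43 genes. Each of 3 words was searched on both strands. CCAAT occurred for 21 of the 40 members (52.5%) and 41.1% of all 27025 genes with a window, and CACGTG for 4 members (Paics, Atic, Impdh2 and Tyms; 10%) and 8.09% of all genes. TGATGNAA occurred for 1 member, Prps1, and 4.51% of all genes. Each stretch shown held at most 1 match, so none could overlap another. These are descriptions of letters, not of binding.

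Levels per kilobase put Rrm2, Aprt and Rrm1 among the 4 leading members of both libraries. Rrm2 was the most abundant member in the Venus-negative library, at 277 CPM per kilobase, followed by Paics (208), Aprt (155) and Rrm1 (136). In the Venus-positive library Aprt led at 257 CPM per kilobase, before Rrm2 (226), Rrm1 (163) and Hprt (151). Neighbours in this order often had overlapping intervals, 29 of 42 neighbouring pairs in the Venus-negative and 28 in the Venus-positive library. Overlap does not show equal levels, and these intervals cover counting error only. Between the libraries 6 members changed place by 10 or more in the order, among them Mthfd1l, 19th in the Venus-negative and 35th in the Venus-positive library, and Hprt, 17th and 4th.

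Enzymes and carriers around the members were examined by list. Of 24 other folate and one-carbon genes with at least 20 counts, 6 were higher and 1 was lower in the Venus-negative library, where 12.6% of all genes with that many counts were higher and 12.3% lower. Slc19a1, the reduced folate carrier, had 604 and 58 counts, or 58.0 and 6.13 CPM (log2 ratio 3.24, interval 2.85 to 3.66). The proton-coupled folate carrier gene Slc46a1 lay the other way, with 0 counts in the Venus-negative and 135 in the Venus-positive library. Sardh, the sarcosine dehydrogenase, was at 28.7 and 2.96 CPM. Ahcyl2, a relative of Ahcy, had 275 counts and 1. Over these 24 genes the median log2 ratio was 0.47, and over all genes -0.01.

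For the other nucleotide genes the background is again all genes with at least 20 counts, of which 12.6% were higher and 12.3% lower. Of 22 other purine genes, 2 were higher and 3 lower in the Venus-negative library. Ak3, the mitochondrial GTP:AMP kinase, was at 136 and 47.1 CPM, and the purine and immune enzyme gene Lacc1 at 21.7 and 6.45 CPM. Gmpr, which returns GMP to IMP, was at 45.0 and 103 CPM, while Adal had 0 and 225 counts. Of 30 other pyrimidine and deoxynucleotide genes, 4 were higher and 2 lower. The nucleoside carrier gene Slc29a2 had 278 counts and 0, the mitochondrial kinase gene Cmpk2 152 and 0, the uracil-degrading dehydrogenase gene Dpyd 196 and 1, and the uridine kinase-like gene Uckl1 434 and 19. Upp1, a uridine phosphorylase of salvage, was at 25.5 and 83.4 CPM, and the nucleoside diphosphate kinase gene Nme3 at 5.28 and 19.1 CPM.

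Among 19 genes of serine, glycine and methionine transport and the amino acid response, 2 were higher and 2 lower in the Venus-negative library. Of all genes with at least 20 counts, as these have, 12.6% were higher and 12.3% lower. The serine and alanine carrier gene Slc1a4 had 1 count in the Venus-negative and 286 in the Venus-positive library, and the large neutral amino acid carrier gene Slc7a5 79 and 335. Tdh, threonine dehydrogenase, which is known in mouse embryonic stem cells as a source of glycine, had 397 and 16 counts (log2 ratio 4.49, interval 3.78 to 5.32). Srr, the serine racemase, had 246 and 65. Tdh was higher in the library where germ cell markers were higher (228 and 12.5 CPM summed), and the part of these cells in its level was not tested.

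Deoxynucleotides are used by the replication fork. Of its 41 fork and licensing genes 0 were past the rule in either direction, and 35 of them averaged at least 50 CPM, where 14.3% of all genes were past it. Their median log2 ratio was 0.05, and their summed level was 7525 and 7303 CPM. The helicase subunit genes Mcm6 (599 and 697 CPM) and Mcm3 (579 and 519 CPM) were the most abundant. Of 24 genes of mitosis and G2, Bub1, a kinase of the spindle checkpoint, was higher in the Venus-negative library at 317 and 119.9 CPM, and the other 23 were not past the rule. The most abundant of these were Top2a, at 1317 and 901 CPM, and Cdk1, at 439.5 and 661 CPM.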

How the data were processed

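The 2 tables deposited by the authors hold raw counts for each gene symbol, as whole numbers. TopHat, Cufflinks and HTSeq with build mm10 are named per the submitters' processing notes; no source used here gives versions, annotation or strand setting. RNA was extracted by mirVana and amplified by SMARTER, per the labels' protocols. The 5 rows for reads of no gene were left out of library sizes: alignments not unique held 45.5% and 48.2%, no feature 5.93% and 7.996%, and ambiguous reads 0.474% and 0.412% of the negative and positive tables.

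Counts were scaled by TMM (edgeR 4.0.16, R 4.3.3). Ratios have exact Clopper-Pearson and levels exact Poisson 95% intervals (scipy 1.17.1). A count of 0 allows up to 3 counts (0.288 CPM for Venus-negative, 0.317 CPM for Venus-positive), a tighter limit than the exact two-sided intervals give (0.354 and 0.390 CPM). Where 1 library was at 0, that floor gave the bound. No test between conditions was possible with 1 library per group. The rule of size, given in the results, ran over all 24062 genes. On simulated data for this comparison with counting error alone, over 24062 genes, the rule recovered 68 of 68 genes at a true 3-fold change, 63 of 63 at 4-fold and 69 of 69 at 8-fold, with 0 unchanged genes called. The changed genes were drawn only from well-counted genes, so recovery near the rule's minimum was not measured. No true change under 3-fold was simulated, and Umps, Mthfd1 and Dctd were called at less than that. Genes simulated at equal levels could hardly pass a 2-fold interval, so the 0 was nearly certain beforehand. Spread from amplification or between libraries was not simulated, so the 0 does not cover it.

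All 43 members matched GENCODE vM21 (mm10) by symbol. Lengths are merged exons of its basic set, and shared words are 50-base words of a gene's coding transcripts found in transcripts of other loci. Read length was not used, so these shares only rank genes. Promoters are from RefSeq, GRCm38.p6.

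Named genes were all members, then up to 4 in each direction past the rule per related list, by distance of the interval from equal expression, or the 2 most abundant where fewer than 2 passed, and the sort markers Gata2, Kit and Pecam1. A few listed genes are not reported here by name; every count, sum and median still includes them. Gcsh, Dld and Adk were named after their values were seen, as were other single cell type markers and head-to-head and overlapping neighbours. Members and lists were chosen with earlier results of these data known. Alternatives were other scalings, including DESeq2 1.42.0 size factors, other minimum levels, a 4-fold interval, a ratio without interval, and thinning.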

Additional observations from a re-analysis of the deposited data

How the results depend on the processing

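No paired analysis was possible because each group has 1 library, and for the same reason none could be left out. With total counts as the scale, the median over all genes shifted by 0.08 (log2) and branch sums went to 0.52 for purine synthesis, -0.34 for purine salvage and interconversion, 0.26 for pyrimidine synthesis, 0.11 for deoxynucleotides, 0.27 for folate, -0.43 for serine and glycine and 0.034 for the methionine cycle, where the sign turned. The other scalings and thinning kept the 4 and 5 member calls. With the interval beyond 4-fold, 0 members were higher and 2 lower, Tk2 and Psph. With a minimum of 50 CPM 3 were lower, and over members with a mean of 50 CPM, an alternative chosen after seeing the data, 2. Without the interval 5 were higher and 6 lower, adding Shmt1 and Mtrr. The share of all genes past the rule was not worked out for the changed minimum levels and intervals. Those member counts therefore have no background to be read against.

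Among related genes, a minimum of 50 CPM left 3 folate genes higher and 0 lower, 1 purine gene higher, 0 pyrimidine genes higher and 1 lower, and 0 and 0 transport genes. A 4-fold interval left 0 purine genes higher and 1 lower, 0 pyrimidine genes lower, 1 transport gene higher and 1 lower, and 0 mitotic genes. Without the interval 4 purine and 4 transport genes were higher, 3 mitotic genes, and 1 replication gene in each direction; scaling by total counts gave 3 mitotic genes. Lower minimum levels gave 5 transport genes lower. For these lists too, the share of all genes under the changed minimum levels and intervals was not worked out. Genes with few counts are limited by depth, and spread between libraries was not measured.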

Other observations

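The X-linked members showed no common direction. Hprt and Prps2 were lower in the Venus-negative library (log2 ratio -1.69 each), Prps1 was near equal (-0.16) and Ctps2 was above it (0.47). Tk1 overlaps Afmid, a kynurenine pathway gene, by 169 bases on the opposite strand, and counts of Afmid were 182 (Venus-negative) and 0 (Venus-positive).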
